A study of Drosophila melanogaster with 2 samples.

Results

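Foxo binding sites that ranked high in each of 2 biological replicates made up 626 of the 1427 peaks in the authors' thresholded list (43.9%, 95% Clopper-Pearson interval 41.3 to 46.5). That list was made by irreproducible discovery rate (IDR), a method that sets a cut from how alike replicates rank regions. Each replicate also had a relaxed list, of which the 1427 regions of highest signal were taken. A peak was called high in both replicates where a region of each such top list had its summit 150 bp or less from that of the peak. A region could match more than a single peak, and the 626 peaks matched 624 distinct regions of replicate 5 and 625 of replicate 6. The other 801 IDR peaks comprised 351 that ranked high in replicate 5 only, 361 in replicate 6 only and 89 in neither. Ranks and signals therefore chose these peaks, and they are given below as a description with no test, whereas position and sequence were not used in the choice.

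The data came from chromatin immunoprecipitation sequencing of whole wandering larvae of Drosophila melanogaster in the third instar, with males and females pooled. The larvae carried a stably expressed foxo protein with green fluorescent protein at its C-terminus, which was precipitated with an antibody against the fluorescent protein (a further label field names foxo as the antibody). Both replicates belonged to 1 group and carried the same fusion, no other genotype or treatment was compared, and a control library was not analysed here. Whole larvae mix all tissues, so a site bound in few cells cannot be told from a site bound weakly in many. Library depths are unknown.

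Foxo is the single fly member of the FoxO class of forkhead transcription factors. Insulin signalling through the kinases Pi3K and Akt leads to its phosphorylation and keeps it out of the nucleus. When insulin signalling is low, foxo enters the nucleus and acts on genes of growth, translation, metabolism and stress resistance, including the insulin receptor gene InR and Thor, which encodes the translational repressor 4E-BP. FoxO proteins bind DNA with a core written TGTTTAC, a special case of the wider forkhead consensus.

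The sequence at 5 summits is shown first because the comparisons below turn on local base composition. Members were ordered by the worse of their 2 ranks, and of the 20 best these are the first 5 whose window could be printed. Each line holds 101 bases centred on a summit, read from the Release 6 genome (dm6), with matches to the forkhead consensus in capitals. The sites lie in an intron of CG11050, upstream of CG14100, in an intron of ush upstream of the zinc finger gene cbt, upstream of lncRNA:CR31044 and in an intron of CG32772.
CG11050, chr2L:6612649-6612749, plus strand: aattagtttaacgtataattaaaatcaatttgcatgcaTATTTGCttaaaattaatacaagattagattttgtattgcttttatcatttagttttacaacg
CG14100, chr3L:19590572-19590672, plus strand: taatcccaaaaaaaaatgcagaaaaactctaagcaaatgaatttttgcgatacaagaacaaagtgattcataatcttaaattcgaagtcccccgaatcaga
cbt, chr2L:481050-481150, plus strand: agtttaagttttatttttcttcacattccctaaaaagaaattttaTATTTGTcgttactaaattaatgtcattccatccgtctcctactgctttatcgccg
lncRNA:CR31044, chr3R:29214353-29214453, plus strand: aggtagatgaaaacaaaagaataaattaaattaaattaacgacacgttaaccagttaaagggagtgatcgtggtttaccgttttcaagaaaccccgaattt
CG32772, chrX:4910316-4910416, plus strand: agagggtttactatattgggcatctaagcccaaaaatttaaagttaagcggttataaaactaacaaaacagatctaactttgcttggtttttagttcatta
GC content was 20.8% at CG11050, 31.7% at CG14100, 30.7% at cbt and CG32772, and 32.7% at lncRNA:CR31044. The CG11050 and cbt windows hold 1 match each and the other 3 none. Over all 15 such windows of the best members GC content ran from 20.8% to 46.5%, and 10 of the 15 held no forkhead match. These windows reach 50 bp to each side, a length at which the share over all members is not given. Within 100 bp of the summit, 10 of the 20 best members held a match.

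The exact FOXO core was present within 100 bp of 49 of the 626 summits (7.83%), and the following windows of 37 bases show it in capitals in its TGTTTAC orientation. They are members of high pooled signal whose printed window touches no annotated untranslated region.
Lk6, chr3R:11761081-11761117, minus strand: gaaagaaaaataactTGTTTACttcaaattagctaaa
CG9663, chr2L:3302166-3302202, minus strand: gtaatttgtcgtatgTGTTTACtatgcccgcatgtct
Art3, chr3R:15229493-15229529, plus strand: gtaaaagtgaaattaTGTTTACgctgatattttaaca
spen, chr2L:166721-166757, minus strand: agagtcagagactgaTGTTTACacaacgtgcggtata
bves, chrX:21054362-21054398, minus strand: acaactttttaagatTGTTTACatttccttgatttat
CG1635, chr3R:31588428-31588464, minus strand: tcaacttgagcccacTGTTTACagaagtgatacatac
Raf, chrX:2300647-2300683, minus strand: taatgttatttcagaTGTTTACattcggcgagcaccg
fok, chr2L:20085328-20085364, minus strand: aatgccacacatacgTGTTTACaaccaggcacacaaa
crb, chr3R:24295962-24295998, plus strand: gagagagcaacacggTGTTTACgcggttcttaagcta
The core lay 4 bp from the summit at CG9663, 3 bp at Art3 and 6 bp at spen, but 84 bp away at CG1635, 92 bp at fok and 72 bp at crb.

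A GAGA element, the repeat recognised by the GAGA factor Trl, differed in share between classes of peaks, with the values given further on. The windows below show GAGAGAG in capitals at members near genes of insulin output, stress, metabolism and the ecdysone response. They were picked by gene out of 67 members with the element, so they do not show at which kinds of gene it lies.
Thor, chr2L:3478334-3478370, plus strand: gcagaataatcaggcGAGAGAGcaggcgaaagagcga
Cat, chr3L:18822852-18822888, plus strand: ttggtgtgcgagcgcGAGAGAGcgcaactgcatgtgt
Ldh, chr3L:6262738-6262774, minus strand: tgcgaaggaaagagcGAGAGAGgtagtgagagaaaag
Eip75B, chr3L:17999963-17999999, plus strand: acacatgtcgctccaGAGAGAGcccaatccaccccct
Lk6, chr3R:11761109-11761145, plus strand: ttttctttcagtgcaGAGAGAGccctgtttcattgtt
The element lay 13 bp from the summit at Thor, 32 bp at Cat (catalase), 72 bp at Ldh (lactate dehydrogenase), 84 bp at Eip75B (an ecdysone-induced nuclear receptor) and 76 bp at Lk6. The same Lk6 summit carried the FOXO core at 48 bp.

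The signals of the authors' caller, whose scale is not stated, describe how firmly the peaks stood out. In replicate 5 the 626 peaks had signals of 34.0 to 373 with a median of 58.3, and in replicate 6 of 42.3 to 377 with a median of 61.5. In the pooled list they ran from 70.5 to 745 with a median of 120, while the other IDR peaks ran from 69.0 to 182 with a median of 79.2. All of the 100 IDR peaks of highest pooled signal ranked high in both replicates. With the IDR list cut into 4 equal parts from the highest pooled signal down, the share of members was 92.2%, 56.0%, 24.1% and 3.09%, so 97 of the members came from below the median of pooled signal. Across the 626 members the 2 replicates' signals gave a Spearman's rho of 0.55 and, on the log10 scale, a Pearson's r of 0.70. These values describe peaks chosen on both signals and carry no test.

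The replicates differed in how many regions reached a low q-value, since 1061 regions of replicate 5 and 6870 of replicate 6 had one at or below 0.01. All 626 members reached it in replicate 6 and 563 did in replicate 5. The summits of the 2 replicates were a median of 33.5 bp apart at members, with 394 of 626 within 50 bp, and 41.0 bp apart at the other IDR peaks matched in both lists. Peaks of less than the usual 380 bp width made up 168 of 626 members (26.8%) and 9 of the other 801 (1.12%), and all these values belong to the calls from which the peaks were chosen.

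**Figure D1:**
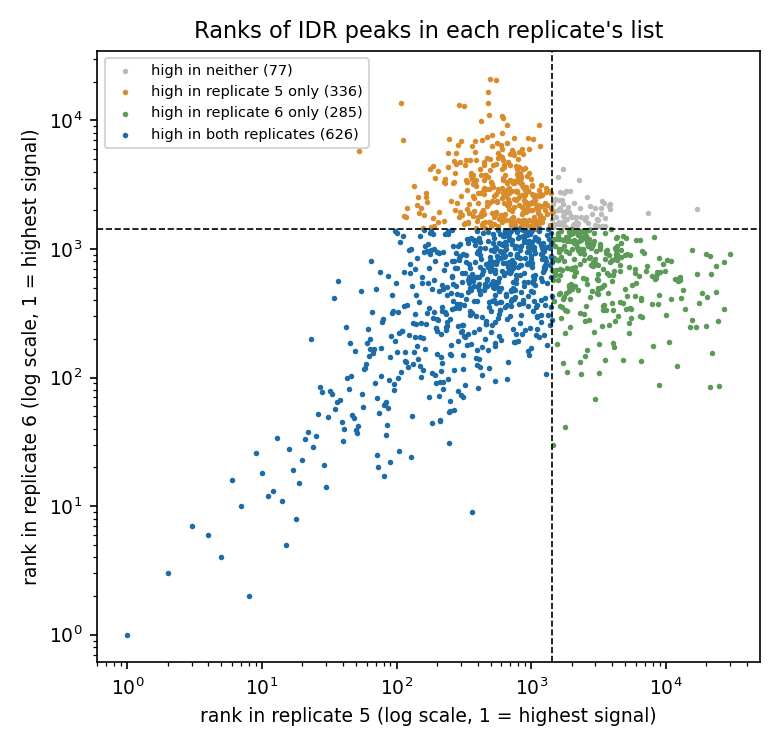
Rank of each IDR peak in replicate 5 (x axis) and replicate 6 (y axis), both on log scales with rank 1 as the highest signal, for the peaks matched in both lists. Dashed lines mark rank 1427, and the 626 peaks in the lower left rectangle are those ranked high in both replicates.

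The plot of ranks shows peaks close to the diagonal at the highest ranks and a broad cloud near the limits. The members just inside the limit, by their worse rank, were the peaks nearest to lncRNA:CR45048, at rank 1418, ppk, at 1420, Gyg, at 1422, Atxn7, at 1424, and CG14253, at 1425. Just outside lay the peaks nearest to Trmt61, at 1428, CG13690, at 1435, spn-B, at 1438, CG42327, at 1443, and Rme-8, at 1444. The peak at CG14253 had signals of 36.8 in replicate 5 and 42.3 in replicate 6, and that at Trmt61 had 33.9 and 46.3.

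The members of best rank lay at genes of varied function. The peak in the CG11050 intron (2L, 6612446 to 6612871) ranked first in both replicates, with signals of 373 and 377. The peak between the starts of Ugalt, a UDP-galactose transporter, and eIF2Bbeta, a subunit of the exchange factor of translation initiation (X, 2703729 to 2704037), had 370 and 240. The peak 69 bp downstream of a start of PNPase, the mitochondrial polynucleotide phosphorylase, which faces the receptor kinase gene Gprk2 (3R, 31404530 to 31404798), had 261 and 236. In each pair the first value is that of replicate 5, here and below, and since lists of different libraries need not share a scale, ranks rather than signals are to be set against each other: the Ugalt peak ranked 2 and 3, and the PNPase peak 5 and 4.

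Other members among the 20 of best worse rank included the following. The ph-p peak, 495 bp upstream of a start of this Polycomb gene (X, 2137203 to 2137486), had signals of 222 and 209. The peak 85 bp downstream of a start of Chro, the gene of the chromosome protein Chromator (3L, 22878762 to 22879033), had 233 and 160. A peak in an exon of lncRNA:CR46035 inside osa, a Brahma complex gene (3R, 17704256 to 17704528), had 229 and 177. These 3 peaks ranked 14 and 11, 9 and 26, and 10 and 18. The intronic peak of Lk6, a kinase of the cap-binding factor eIF4E (3R, 11760909 to 11761179), had 201.2 and 188. The peak 297 bp upstream of a start of larp, an RNA-binding protein gene (3R, 28326455 to 28326726), had 214 and 155. The peak between Tcs5, of tRNA modification, and CHMP2B (3L, 5139367 to 5139624) had 166 and 172.

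The cbt site in the ush intron (2L, 480942 to 481249) had signals of 234 and 283, although the summits of the replicates were 140 bp apart. The CenG1A peak, 88 bp upstream of its start and facing the mitochondrial ribosomal gene mRpS23 (2L, 13835331 to 13835582), had 203 and 220, and the CG9663 peak (2L, 3302046 to 3302317) had 195 and 165. The remaining peaks of the 20 were nearest to CG1888, CG14100, lncRNA:CR31044, CG9147, CG32772, CG18549, CG16753 and lncRNA:CR44619. Of these 20 peaks, 12 lay within 500 bp of a transcription start site (TSS), 10 held the forkhead consensus within 100 bp, 2 held the FOXO core (Lk6 and CG9663) and 1 held a GAGA element (Lk6).

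The share of summits at promoters, in introns and between genes did not differ detectably between members and other IDR peaks. Of the members, 327 of 626 summits (52.2%, 48.2 to 56.2) lay within 500 bp of an annotated TSS, against 413 of 801 others (51.6%, 48.0 to 55.1), a difference of 0.68 percentage points that did not pass Fisher's exact test (two-sided, Benjamini-Hochberg adjusted exact p = 0.914 over 11 position features). Introns beyond 500 bp of a TSS held 225 members (35.9%) and 35.3% of the others (adjusted exact p = 0.914). Intergenic sequence held 54 members (8.63%) and 10.2% of the others (adjusted exact p = 0.501). The remaining members lay in 5′ untranslated regions (8), 3′ untranslated regions (5), non-coding exons (6) and coding sequence (1). Peaks are the units of these tests, which measure no variation between animals.

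**Figure D2:**
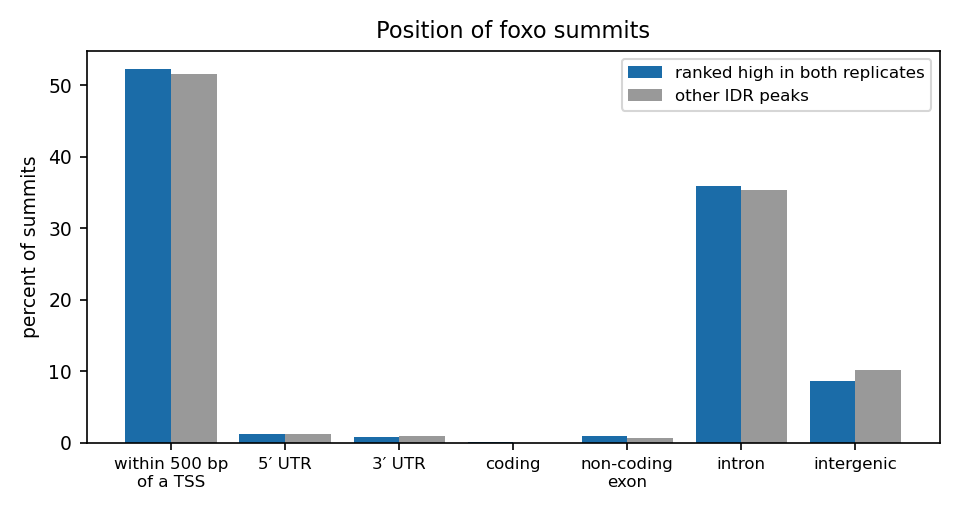
Percent of summits (y axis) in each annotation class (x axis) for the 626 peaks ranked high in both replicates and the 801 other IDR peaks, with classes assigned in the order shown. Promoter windows hold 52.2% and 51.6%, and introns 35.9% and 35.3%.

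Among summits within 500 bp of a TSS, 270 of 327 members (82.6%) and 320 of 413 others (77.5%) lay upstream of it (adjusted exact p = 0.268). Members lay between divergent starts, with a TSS within 1000 bp on each side pointing away, in 123 cases (19.6%) and others in 136 (17.0%, adjusted exact p = 0.468). Over 5000 bp from any TSS lay 55 members (8.79%) and 93 others (11.6%, adjusted exact p = 0.268). The nearest gene was not protein-coding for 84 members (13.4%) and 13.2% of the others (adjusted exact p = 0.937). Another IDR summit lay within 5000 bp of 231 members (36.9%) and of 34.8% of the others (adjusted exact p = 0.599). None of these features passed the test, and each interval of the members' share overlapped that of the others.

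Chromosome X held 107 members (17.1%, 14.2 to 20.3) and 98 others (12.2%, 10.1 to 14.7), which missed the threshold after adjustment (Fisher's exact test p = 0.00979, adjusted exact p = 0.0538). X held 16.6% of all TSS positions, so the members' share was near that of start sites. Against the peaks high in replicate 6 only, of which 8.59% lay on X, the members' share was higher (adjusted exact p = 0.00102), and against those high in replicate 5 only (14.5%) the difference did not pass the test (adjusted exact p = 0.704). The result depended on the replicate: with high rank in replicate 5 alone as the rule the difference was 5.73 points and passed the test (adjusted exact p = 0.0241), and with replicate 6 alone it was -1.25 points (adjusted exact p = 0.780). No member lay on chromosome 4 (0 of 626, upper limit 0.588%), against 3 of the 801 others (adjusted exact p = 0.478).

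Members had lower GC content at the summit than the other IDR peaks as a whole. The GC content of the bases within 100 bp of the summit was under the median of all IDR peaks at 337 members (53.8%, 49.8 to 57.8) and 362 others (45.2%, 41.7 to 48.7), a difference of 8.64 percentage points (Fisher's exact test, adjusted exact p = 0.0150). The mean GC content was 37.8% in members and 39.6% in the others. It was 37.5% in peaks high in replicate 5 only, 42.0% in those high in replicate 6 only, 37.8% in those high in neither and 38.7% in the 28573 pooled regions outside the IDR list, compared with 42.2% around TSSs and 43.0% in windows 1000 bp to the left of members. Of the peaks high in replicate 6 only, 33.8% were under the median (adjusted exact p = 1.56e-08 against members), and of those high in replicate 5 only 56.1% were (adjusted exact p = 0.760). The call was not made within the peaks above the median of pooled signal (difference 11.7 points, adjusted exact p = 0.0693) or below it (4.57 points, adjusted exact p = 0.663), each with fewer peaks, nor with a rank limit of 0.5 times the number of IDR peaks (6.20 points, adjusted exact p = 0.476) or a match within 50 bp (6.78 points, adjusted exact p = 0.115). Where replicate 6 alone defined the class, the difference was -8.04 points (adjusted exact p = 0.0648).

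In bins of 20 bp the mean GC content of members was 43.2% to 44.6% beyond 250 bp and 33.9% just beside the summit, and the lowest bin had 34.8% in peaks high in replicate 5 only, 37.0% in the other IDR peaks together and 39.7% in peaks high in replicate 6 only. Counted within 50 bp of the summit, a window chosen after seeing the data, 352 members (56.2%) and 334 others (41.7%) were under the median for that window (adjusted exact p = 5.58e-07).

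**Figure D3:**
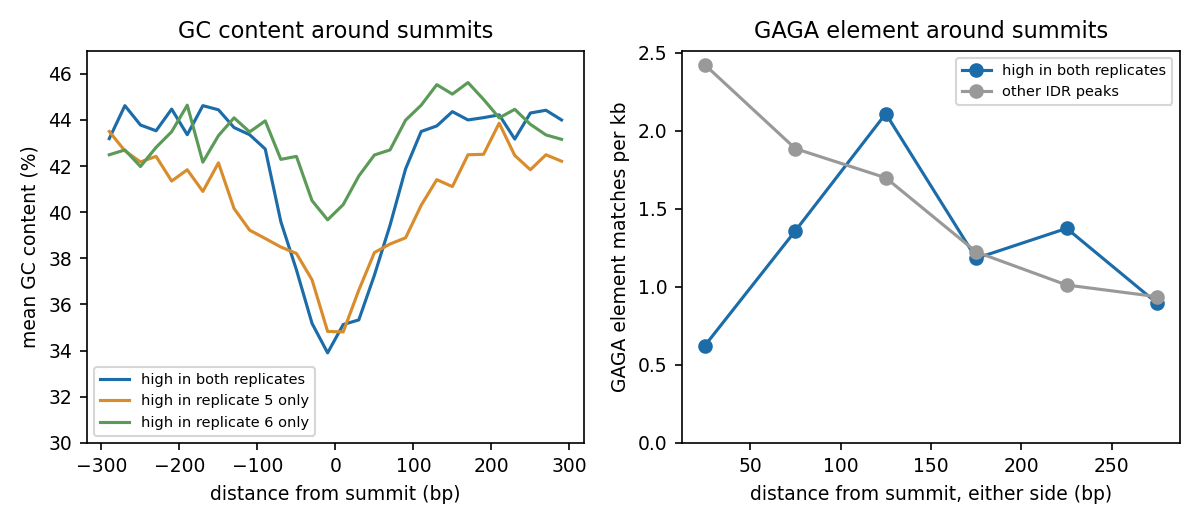
Left, mean GC content (%) in bins along the distance from the summit for the 3 classes of peaks that ranked high in both replicates or in 1. Right, GAGA element matches per kb by distance from the summit on either side, with 0.623 within 50 bp in members and 2.42 in other IDR peaks of all classes together.

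The GAGA element was found within 100 bp of 67 members (10.7%, 8.39 to 13.4) and 121 other IDR peaks (15.1%, 12.7 to 17.8), a difference of -4.40 points that did not pass the test (Fisher's exact test, adjusted exact p = 0.121 over 13 consensus sequences, searched on both strands). Its direction depended on the replicate: with high rank in replicate 5 alone as the rule the difference was -9.64 points (adjusted exact p = 1.67e-05), and with high rank in replicate 6 alone it was 6.56 points (adjusted exact p = 0.00861). Above the median of pooled signal the members' share was lower by a wider margin, at a difference of -10.5 points (adjusted exact p = 0.00611), and below it the difference was 0.96 points (adjusted exact p = 1). The difference was -0.83 points with a rank limit of 0.5 times the number of IDR peaks (adjusted exact p = 1) and -1.31 points within 200 bp (adjusted exact p = 0.776). The element also differed in its place. Within 50 bp of the summit it was found at 21 members (3.35%, 2.09 to 5.08) and at 66 others (8.24%, 6.43 to 10.4; adjusted exact p = 0.00163). In members the matches rose from 0.623 per kb within 50 bp to 1.36 per kb at 50 to 100 bp and 2.11 per kb at 100 to 150 bp. In the others they fell from 2.42 to 1.89 and 1.70 per kb over the same distances. Neighbouring matches in a repeat overlap, so these densities count long repeats several times.

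Members held the element less often than peaks high in replicate 6 only. GAGA elements within 100 bp were present at 32 of 351 peaks high in replicate 5 only (9.12%, adjusted exact p = 0.660 against members) and at 83 of 361 peaks high in replicate 6 only (22.99%, adjusted exact p = 6.50e-06). Within 50 bp, a pairing of window and class chosen after seeing the data, the shares were 3.42% (adjusted exact p = 1) and 14.1% (adjusted exact p = 1.46e-08). In peaks high in neither replicate the share within 50 bp was 3.37%, which was not tested and was near that of members. Peaks high in replicate 6 only also had the highest GC content, and the part of base composition in the difference was not tested. Against the 28573 pooled regions outside the IDR list, of which 4.58% held the element within 100 bp, the members' 10.7% was higher (adjusted exact p = 5.31e-09, chosen after seeing the data).

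**Figure D4:**
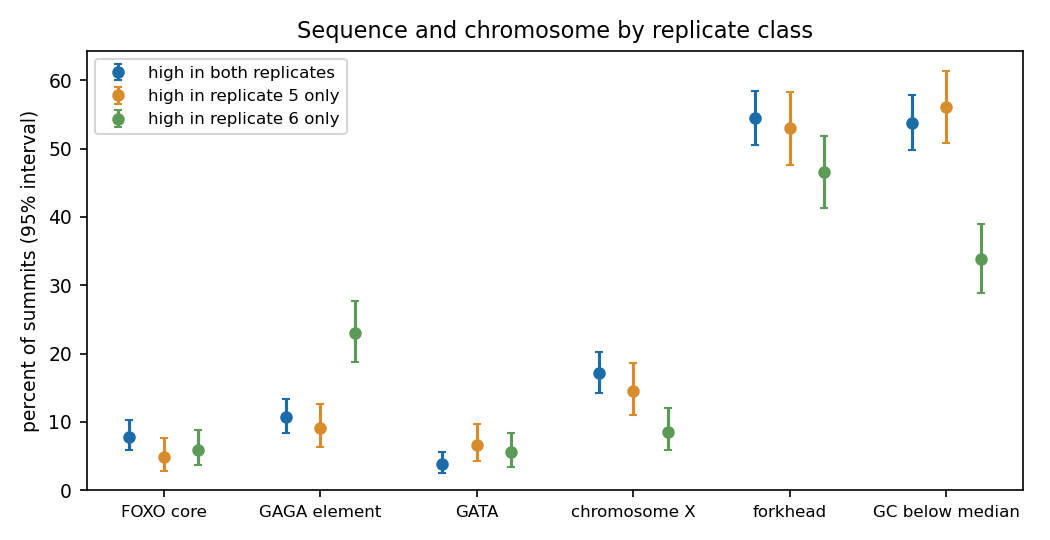
Percent of summits (y axis, with 95% Clopper-Pearson intervals) that hold each consensus within 100 bp, lie on chromosome X, or have GC content below the median of IDR peaks, for peaks ranked high in both replicates, in replicate 5 only and in replicate 6 only. The replicate 6 class stands apart for the GAGA element at 22.99% and for GC content at 33.8%. For chromosome X its 8.59% lies apart from the members' 17.1%, but its interval overlaps that of the replicate 5 class.

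The FOXO core was present at 49 members (7.83%, 5.85 to 10.2) and 44 of the other IDR peaks (5.49%, 4.02 to 7.30), which missed the threshold (Fisher's exact test, adjusted exact p = 0.281). The wider forkhead consensus was present at 341 members (54.5%) and 50.3% of the others (adjusted exact p = 0.299). The core was found in 5.86% of all TSS windows of the same length and in 5.90% of the pooled regions outside the IDR list, and the members' share did not pass the test against the latter (adjusted exact p = 0.213). Among peaks above the median of pooled signal, 7.56% of 529 members and 2.16% of 185 others held the core (adjusted exact p = 0.0461). Below it the shares were 9.28% and 6.49% (adjusted exact p = 1). The 7.56% was near the 7.83% of all members, whereas the 2.16% was under the 5.49% of all other IDR peaks. Members had a median pooled signal of 122.5 with the core and 120 without it.

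Compared with their own flanks, members were enriched for the core. In the 596 members whose left flank touched no IDR peak, it was present at 46 summits (7.72%) and at 22 windows of equal length 1000 bp to the left (3.69%), a ratio of 2.09 (exact McNemar test, adjusted exact p = 0.0213 over 13 sequences). With the right flank the ratio was 1.85 (adjusted exact p = 0.0399), and with a flank 2000 bp to the left it was 1.58 and missed the threshold (adjusted exact p = 0.123). The forkhead consensus was at 53.7% of summits and 38.4% of flanks (adjusted exact p = 1.85e-06), and the GAGA element at 10.6% and 3.86% (adjusted exact p = 3.06e-05). In 772 other IDR peaks tested alike, the ratio for the core was 1.52 (adjusted exact p = 0.225), the forkhead consensus was at 51.0% of summits and 41.8% of flanks (adjusted exact p = 0.00234), and the GAGA element at 14.9% and 4.02%, a ratio of 3.71 (adjusted exact p = 5.52e-12), against 2.74 in members. The differences between these ratios were not tested. The members' flanks had more G and C than the summits, by the means given above, and the part of this in the enrichment was not tested. Core matches per kb were counted in bins of 50 bp from the summit out to 300 bp. In members they were 0.479, 0.351, 0.431, 0.415, 0.3035 and 0.240, which was no steady fall. In the other IDR peaks they were 0.312, 0.250, 0.287, 0.350, 0.225 and 0.237. Each bin of members held 15 to 30 matches, and these profiles were not tested.

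Of the 49 members with the core, 26 lay within 500 bp of a TSS, 20 in introns and 2 in intergenic sequence, and 28 held it within 50 bp of the summit. The peak with the core upstream of Art3, a protein arginine methyltransferase gene (3R, 15229401 to 15229624), had signals of 167 in replicate 5 and 110 in replicate 6. That in an intron of spen, which encodes an RNA-binding regulator of transcription (2L, 166609 to 166813), had 61.3 and 212. That in an intron of Raf, the kinase of the MAPK pathway (X, 2300598 to 2300823), had 142 and 86.8. The spen peak therefore ranked 364 in replicate 5 and 9 in replicate 6, while the Raf peak ranked 49 and 160. Other members with the core and a high pooled signal were nearest to Pal1, bves, CG1635, by, shn, fok and crb, the apical polarity gene, and 9 of the 49 also held a GAGA element.

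The other consensus sequences gave no call between members and the other IDR peaks. The GATA sequence TGATAAG was at 24 members (3.83%) and 54 others (6.74%, adjusted exact p = 0.121). Beyond 500 bp of a TSS the shares were 3.68% and 9.79% (adjusted exact p = 0.0320), within 500 bp they were 3.98% and 3.87%, and in a window of 200 bp to each side 7.67% and 12.5% (adjusted exact p = 0.0191). The homeodomain sequence TAATTA was at 14.5% and 12.4%, and the promoter element TATCGATA bound by Dref at 2.40% and 2.37%. Of all 8192 7-mers counted within 50 bp of summits, 0 (0%) differed between members and the others after adjustment, with 217 higher and 179 lower in members at an unadjusted Fisher p under 0.05. With high rank in replicate 5 alone as the rule, 17 such words were called. The lowest adjusted p of 0.105 was shared by AAATTAA, at 14.1% of members and 7.12% of the others, and CTCTCCC, at 0.320% and 3.25%.

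A member summit lay within 1000 bp of a TSS at 500 of 13945 protein-coding genes (3.59%), and a further 575 (4.12%) had only another IDR peak there. Counts in the gene lists below use the same 1000 bp limit, are set beside that 3.59%, and were not tested. The lists were chosen with earlier results of these data known, so a share above 3.59% does not count as support. Of 30 genes of insulin and TOR signalling, 6 had a member (20%) and 4 had only another IDR peak. They were Pdk1, the kinase that activates Akt, sgg (the fly GSK3, which Akt phosphorylates), foxo itself, Thor, Sesn (sestrin, a restraint on TOR) and REPTOR (a transcription factor that TOR controls). The Sesn peak had signals of 114 in replicate 5 and 117 in replicate 6, that of sgg 93.6 and 56.0, that of Pdk1 45.5 and 67.4, and that of REPTOR 54.7 and 75.1. A summit counted for a list gene can be nearer to the start of another gene. The Pdk1 summit lay 959 bp upstream of Pdk1 and 825 bp upstream of lncRNA:CR45400.

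The classical targets of foxo did not all meet the rank limit. The Thor peak, 69 bp upstream of its start (2L, 3478175 to 3478554), had signals of 48.9 in replicate 5, at rank 584, and 69.2 in replicate 6, at rank 335. The summits of the replicates were 130 bp apart at Thor. The peak 18 bp upstream of InR (3R, 21619149 to 21619528) had 18.2 and 71.9, with ranks of 6656 and 297, and so was no member. Inside InR, however, 3 members lay at 2.89, 5.79 and 13.9 kb from its first start, with pooled signals of 102, 110 and 172. The Akt peak was matched by no region of replicate 5 and ranked 198 in replicate 6. The foxo gene held 2 members, 101 bp upstream of its start with signals of 35.5 and 67.1 and in an intron with 85.0 and 59.3, together with 3 other IDR peaks.

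Stress, hormone and growth genes also had members. Of 27 genes of heat and oxidative stress, 4 had one (14.8%). The peak of the small chaperone gene Hsp27 had signals of 142 and 127, that of Hsp83, the fly Hsp90 gene, 68.1 and 75.4, that of Cat 93.8 and 48.8, and that of cnc, the fly Nrf factor, 50.8 and 61.0. Hsp27 was the highest of these in both replicates. Of 19 genes of the ecdysone response, 4 had a member (21.1%): EcR, the receptor, had 64.3 and 107, its coactivator gene tai 87.4 and 89.9, Eip75B 45.6 and 71.1, and the transporter gene E23 43.9 and 59.4. The summits of the replicates were 134 bp apart at EcR and 173 bp at E23. Of 26 genes of growth and cell cycle, 5 had one (19.2%), among them stg, the Cdc25 phosphatase, with 78.8 and 78.4, bun, a TSC22 family growth gene, with 70.0 and 54.4, and ds and ex of the Hippo pathway with 77.9 and 49.7 and with 45.5 and 62.0. The stg summit lay 501 bp upstream of stg and 184 bp upstream of CG45544.

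In metabolism, 3 of 27 lipid and sugar genes had a member (11.1%). The Gapdh2 peak, at a glycolytic gene, had 117 and 178, the Lpin peak, at the gene of the phosphatidate phosphatase lipin, had 91.9 and 124, and the Ldh peak had 52.6 and 94.9. Their ranks were 80 and 17 at Gapdh2, 131 and 50 at Lpin, and 488 and 119 at Ldh, so each stood higher in the order of replicate 6. Of 8 genes of energy sensing, alc, the beta subunit of AMPK, had a member, with 71.8 and 72.5. Its summit lay 982 bp upstream of alc but 167 bp upstream of CG44286. The 86 cytoplasmic ribosomal protein genes had a member in 11 cases (12.8%) and only another IDR peak in 14, and the 4 of highest pooled signal were RpL14, RpL32, RpS27 and RpL19, at 139, 139, 129 and 116. The RpL14 summit was nearer to the start of Nelf-E (43 bp against 84 bp), and the RpL32 summit to that of CG7943 (120 bp against 189 bp). Of 21 genes of translation initiation and related factors, eIF6 had a member with 168 and 107 and pAbp, the poly(A)-binding protein gene, 1 with 53.0 and 86.6.

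Among regulators of transcription and chromatin, 3 of 13 forkhead genes had a member (23.1%). These were fkh, with 66.3 and 75.2, foxo, and jumu, with 49.1 and 61.9. Of 14 insulator and architectural genes, 3 had one (21.4%), namely Chro, Cp190, with 47.6 and 52.7, and Dref, with 58.3 and 49.1, whose peak also lay 51 bp upstream of RpL13. Of 30 Polycomb and Trithorax group genes, ph-p had a member within 1000 bp of a start (3.33%) and 10 had only another IDR peak there. Of 15 JNK and cell death genes, Diap1, the inhibitor of apoptosis, had 77.5 and 89.2 and puc, the JNK phosphatase, 63.9 and 83.9. Of 24 genes of Notch, Wnt and TGF-beta signalling, shn, a transcription factor of the Dpp pathway, had 77.6 and 128, and put, a type II receptor, 41.8 and 44.5. The put summit lay 45 bp upstream of put and 7 bp upstream of His4r. None of 14 autophagy and lysosome genes and none of 6 genes of GATA factors and their cofactor had a member within 1000 bp of a start, although Atg17 and ush had another IDR peak there.

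Some list genes without a member near a start held one farther inside the gene, and these are named here after their values were seen. The share of all genes with a member under this looser rule was not counted, and longer genes hold more sequence. The counts in this paragraph therefore cannot be set beside the 3.59% above. The GATA cofactor gene ush held 3, with pooled signals of 181, 464 and 104, the second being the cbt site above. Of the Polycomb and Trithorax group, osa, Psc, Trl, lola and skd held 1 each, which makes 6 of 30 with ph-p, and the Trl peak had signals of 106 and 59.4. Among ecdysone response genes the nuclear receptor gene Hr4 held 2 and Eip78C 1, and among Notch, Wnt and TGF-beta genes tkv and fz held 2 each and mam and neur 1 each. Atg1 and Atg7 of autophagy and the forkhead gene CHES-1-like held 1 each. Such a peak may lie at the start of another gene, as at Atg1 and Atg7, where the nearest TSS was 16 and 15 bp away and belonged to another gene.

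Some long genes held several members. Counting summits inside the gene or within 1000 bp of its starts, 63 genes had 2 or more members and 18 had 3 or more, and 125 members had another member within 5000 bp. Gene length was not taken into account, and the matching counts for the other IDR peaks were not made. Any other IDR summit within 5000 bp was about as common at members (36.9%) as at the others (34.8%), as given above. The genes shn and Eip75B had 5 members each, and Raf, CG12535, rdx and bun had 4 each. The rdx members with pooled signals of 106 and 70.9 were matched by the same region of replicate 6, at rank 543, so they are not independent there. All 4 IDR peaks of CG12535 were members, while Eip75B had 5 other IDR peaks besides, Raf 5, bun 5, shn 2 and rdx 1. At each of the 4 CG12535 members the nearest start was that of tRNA:Gln-TTG-2-1 or CG14269. A Raf member likewise lay 196 bp from a start of lncRNA:CR34052, and a bun member 516 bp from one of t-cup. The strongest member of Eip75B, with a pooled signal of 267, lay 52.8 kb from the first start of this 114 kb gene, and that of Raf, with 221, lay 5.23 kb from the first start.

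**Figure D5:**
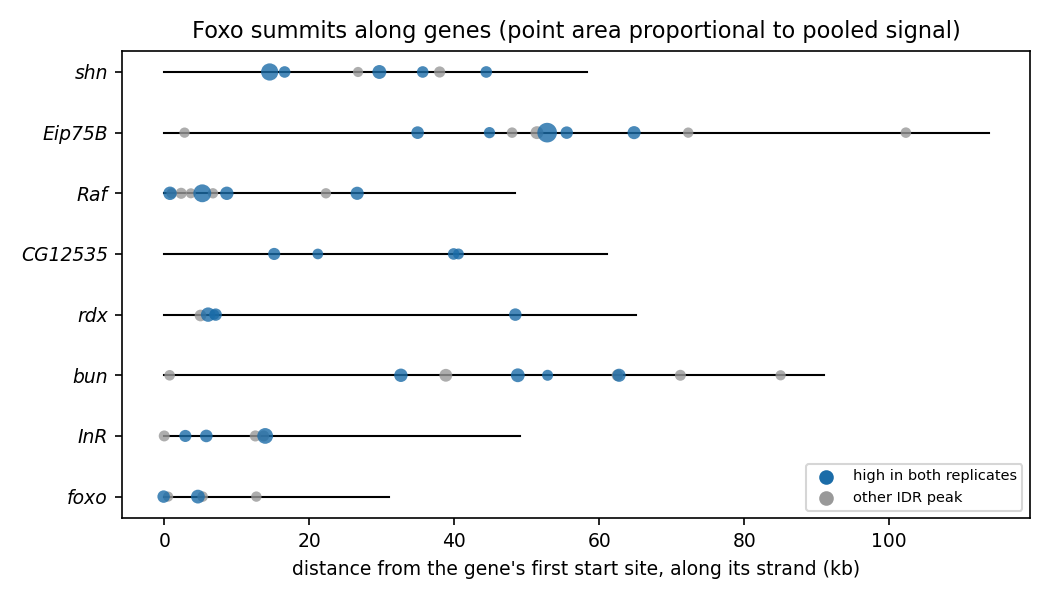
Summits along the 6 genes with most members and along InR and foxo, by distance in kb from the gene's first start site (x axis), with the line as the length of the gene and point area proportional to pooled signal. Members are blue, other IDR peaks are grey, and the members of shn, with 5, and of Eip75B, with 5, lie well inside the genes rather than at their first start. Some of them lie at a later start of the same gene, as 189 bp upstream of one in shn and 76 bp upstream of one in Eip75B.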

How the data were processed

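Interval lists of foxo ChIP-seq from 2 biological replicates of 1 group were used. The deposited signal of each region is the value of the authors' caller on an unstated scale, which served only to rank and describe regions within a list. The deposited significance column holds −log10 of a q-value. By the deposited sample notes, each relaxed list came from a replicate's alignments and a further file that the notes do not describe, and the IDR list from comparing replicate lists with the pooled list. The sources used here do not give the aligner, the caller or versions. The number of reads is unknown, so intervals cover counting error over peaks only.

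Each relaxed dm6 list held 30000 regions. Coordinates are 1-based on dm6. Chromosome sequence came from RefSeq's Release 6 assembly, and 18164 genes and 23581 distinct TSSs from Ensembl release 115, leaving out transposable elements. Consensus sequences on either strand were sought within 100 bp of summits. The 13 sequences were a forkhead consensus of 7 bases (purine, pyrimidine, 3 adenines, pyrimidine, adenine), the FOXO core TGTTTAC within it, the GAGA element GAGAGAG, the Dref site TATCGATA, the GATA site TGATAAG, the ecdysone receptor part site AGGTCA, the Stat site TTCNNNGAA, the M1BP site GGTCACACT, the E-box CACGTG, the AP-1 site TGACTCA or TGAGTCA, the CREB site TGACGTCA, the Zelda-like site CAGGTAG and the homeodomain site TAATTA. Of 377 names in 15 gene lists, 17 did not match the annotation.

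Fisher's exact tests compared members with the other IDR peaks and exact McNemar tests compared summits with flanks, all two-sided with Benjamini-Hochberg adjustment, in Python 3.11.15 with numpy 2.4.6 and scipy 1.17.1. Figures used matplotlib 3.10.9. The functions for summit matching, sequence search, Fisher's test with adjustment and the McNemar test were tested on simulated data. Those for gene annotation, flank windows and GC content were not.

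The naming rule took the nearest gene, by TSS, for the 20 members of best worse rank, the 5 members just inside and the 5 peaks just outside the limit, and the 10 members of highest pooled signal with the FOXO core. Named as well were foxo, InR, Thor and Akt, up to 4 genes a list by pooled signal and the 5 genes with most members, taken as 6 because of a tie, and genes at the other side of a named peak. The members and lists were chosen with earlier results of these data known. Alternatives changed the rank limit, the match distance, the replicates, the pooled signal, the windows and the flanks.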

Additional observations from a re-analysis of the deposited data

How the results depend on the processing

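No paired analysis was possible because both replicates belong to 1 group. The number of members was 335 with a limit at 0.5 times the number of IDR peaks, 1004 at 2 times that number and 430 with summits matched within 50 bp, and it ran from 977 to 987 without 1 of the replicates. Of the 626 members, 529 lay above and 97 below the median of pooled signal.

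The promoter difference passed the test under none of its 12 alternatives and turned to -0.89 points at 2 times the limit, -2.66 with a 50 bp match, -0.0305 with a 300 bp match, -0.29 above the median of pooled signal and -0.40 against replicate 6 only peaks, and it ran from -0.21 to 1.70 without 1 replicate. The GAGA difference was -0.83 points at 0.5 times the limit, -6.81 at 2 times the limit, -1.31 within 200 bp, -10.5 above and 0.96 below the median of pooled signal, 1.59 against replicate 5 only peaks, -12.3 against replicate 6 only peaks, -4.88 within 50 bp, -10.8 within 50 bp against replicate 6 only peaks and 6.12 against regions outside the IDR list, and it ran from -9.64 without replicate 6 to 6.56 without replicate 5.

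The FOXO core difference passed the test only above the median of pooled signal, at 5.40 points. Its ratio to flanks missed the threshold below that median (1.40), at promoters alone (2.36), beyond promoters (1.82) and with the flank at 2000 bp (1.58). Calls among 7-mers numbered 9 at 2 times the limit, 17 against replicate 6 only peaks and 1 in the 100 bp window, and ran from 0 to 17 without 1 replicate.

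The divergent share turned to -1.87 points at 0.5 times the limit and ran from -0.0461 to 2.82 without 1 replicate, the GATA share to 0.71 at 2 times the limit and 0.10 at promoters, the X share ran from -1.25 to 5.73 and the low GC share from -8.04 to 17.99 without 1 replicate, and the latter was -2.29 against replicate 5 only peaks. The cause of these changes was not tested. On dm3 the same rule found 594 of 1377 peaks. Library depth is unknown, so what it limits cannot be stated.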
